A study of Mus musculus with 4 samples.

Results

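The genes described here are the uroplakins Upk1a, Upk1b, Upk2, Upk3a and Upk3b, the keratins Krt20 and Krt5, and Ly6d, which together mark the umbrella and basal layers of the urothelium. They were chosen by their place in the urothelium and with earlier results of these arrays in view, among them the lower Cy5 signal of Upk3a in knockout cells. Their differences between knockout and wild type are therefore a description and were not tested gene by gene. A non-control probe was taken for a gene when its accession matched the symbol in mouse RefSeq, which gave 9 probes for the 8 genes, of 41174 probes in all. Upk1a had 2 probes and each of the others 1. All 9 probes were well above background in Cy5 on all 4 arrays and in Cy3 on the 3 arrays with Cy3 signal.

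The study asked which genes change in the ureteric bud lineage when the (pro)renin receptor gene (PRR, Atp6ap2) is removed. Cells of the ureteric bud and collecting duct were sorted by EGFP fluorescence from mice at postnatal day 1, and their total RNA was labelled. Knockout cells were HoxB7CreEGFP+; PRR flox/flox and wild-type cells were CreEGFP+ PRR+/+, so that Cre recombinase and the green fluorescent protein were carried by both genotypes. The HoxB7 promoter is active in the ureteric bud and its descendants, and cells were pooled. Knockout RNA was labelled with Cy5 on both KO_vs_WT arrays, beside Cy3-labelled wild-type pool 1 (replicate 1) or pool 2 (replicate 2). Each WT_self array held a wild-type pool in both dyes, pool 1 on replicate 1 and pool 2 on replicate 2. The titles conflict with the sources named for each channel, calling the self arrays knockout. Groups follow the channel sources here, and every direction between genotypes would turn if the titles were right. The descriptions also exchange the pools of the self arrays, and if they were right every difference between the pools would turn and the values against each pool would change places. In Cy3, the pool 2 channel of KO_vs_WT replicate 2, on whose pool the labels agree, differed from WT_self replicate 2 with an SD over genes of 0.128 and from WT_self replicate 1 with one of 0.43. No label numbers the knockout RNA, so whether the KO_vs_WT arrays hold separate pools of animals is not known, and the spread between them may be technical.

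The urothelium is the stratified lining of the renal pelvis, ureter and bladder. In the upper tract it descends from the trunk of the ureteric bud, the same outgrowth that forms the collecting ducts. Its umbrella cells carry plaques of uroplakins at their surface. In these plaques the tetraspanins uroplakin 1a and 1b pair with the single-pass proteins, 1a with uroplakin 2 and 1b with uroplakin 3a or 3b. Keratin 20 is a filament protein of mature umbrella cells, keratin 5 one of basal cells, and Ly6d is a lipid-anchored surface protein of keratinocytes that is also found on early B cells. Uroplakin 3b is known from mesothelium as well.

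Signal differed between channels across all genes. Probes well above background in Cy5 numbered 22713 and 20796 with knockout RNA, against 20028 and 18424 with wild-type pools 1 and 2. The Cy3 (wild-type) channel of KO_vs_WT replicate 1 held 28 such probes, none of them of the 8 genes, and the other 3 arrays held 14936 to 18574. Genotypes were therefore set against each other in Cy5, where levels are log2 intensities after background correction and quantile normalization. Atp6ap2, the targeted gene, stood at 8.08 and 7.72 on KO_vs_WT replicates 1 and 2, against 8.37 and 8.51 in wild-type pools 1 and 2. In limma 0 of 16120 genes were higher and 0 lower in knockout at an adjusted p under 0.05 (percent called 0 each way), with a smallest adjusted p of 0.798 and 694 genes at an unadjusted p under 0.05. Of the ureteric bud and collecting duct list all 8 genes were measured, as were all 8 principal cell genes.

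All 8 urothelial genes read lower in knockout than in wild type on average in Cy5. The differences ran from -1.66 to -0.49 on the log2 scale, with a median of -0.90, where the median of all 16120 genes was 0.025 and 44.7% of them lay below 0. Ly6d, Upk3a and Krt20 were 3.15-fold, 2.74-fold and 2.72-fold lower, and these 3 of 8 genes were past 2-fold, as were 0.912% of all genes. For Ly6d and Krt20 the fold past 2 rests on single arrays. Ly6d was at -0.90 without KO_vs_WT replicate 2 and Krt20 at -0.89 without WT_self replicate 2, both under 2-fold. Upk3a stayed past 2-fold with each array left out, from -1.76 without WT_self replicate 1 to -1.13 without WT_self replicate 2. None was at least 2-fold higher, where 0.378% of all genes were. In 5 of the 8 genes, Upk1b, Upk3a, Upk3b, Krt20 and Ly6d, both knockout arrays lay below both wild-type pools. Over all genes 17.2% did so, and the 5 were among genes chosen with these levels known. In bulk RNA, fewer urothelial cells in a pool and less of each RNA per cell cannot be told apart.

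**Figure D1:**
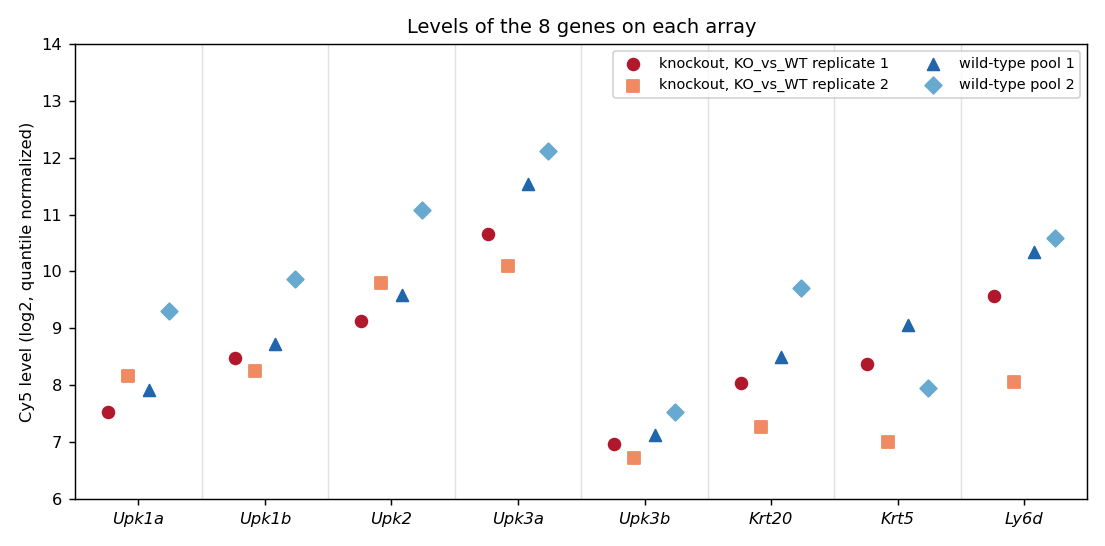
Cy5 level of each gene on the log2 scale after quantile normalization, with a point for each of the 4 arrays (knockout on KO_vs_WT replicates 1 and 2, wild-type pools 1 and 2 on the self arrays). Upk3a stood at 10.66 and 10.10 on the knockout arrays, below 11.54 and 12.12 in the wild-type pools, while in Upk1a, Upk2 and Krt5 the genotypes overlap.

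Upk1a, the tetraspanin partner of uroplakin 2, read 7.53 and 8.16 in Cy5 on KO_vs_WT replicates 1 and 2 and 7.92 and 9.31 in wild-type pools 1 and 2. Only pool 2 stood clear of the knockout arrays, and knockout replicate 2 lay above pool 1. The difference was -0.78 ± 0.51 (limma SE, n = 2 arrays per group, as for all differences with an SE below). The second Upk1a probe read 7.32 and 6.89 on the knockout arrays, against 7.67 and 8.57 in the pools, a difference of -1.02. With that probe both knockout arrays lay below both pools, so the probes of this gene disagree on the overlap.

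Upk1b, the tetraspanin partner of uroplakins 3a and 3b, read 8.48 and 8.24 on the knockout arrays and 8.73 and 9.87 in wild-type pools 1 and 2. Its groups did not overlap, and the difference was -0.94 ± 0.39. Most of that difference lay against pool 2, at -1.51, with -0.37 against pool 1.

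Upk2, the partner of uroplakin 1a, read 9.14 and 9.80 on the knockout arrays and 9.59 and 11.08 in wild-type pools 1 and 2, a difference of -0.87 ± 0.54. Like the brighter Upk1a probe, it overlapped between genotypes, with knockout replicate 2 above pool 1. The knockout mean was 1.09-fold lower than pool 1 and 3.05-fold lower than pool 2.

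Upk3a, the partner of uroplakin 1b, read 10.66 and 10.10 on the knockout arrays and 11.54 and 12.12 in wild-type pools 1 and 2. Both knockout arrays lay below both pools, and the difference of -1.45 ± 0.29 was the 66th lowest of 16120 genes. It was the uroplakin with the largest difference against pool 1, where the knockout mean was 2.23-fold lower, and it was 3.36-fold lower than pool 2. Upk3b, its relative that can also pair with uroplakin 1b, was dim in every channel, at 6.97 and 6.72 on the knockout arrays against 7.13 and 7.53 in the pools. Its groups did not overlap, and its difference of -0.49 ± 0.19 was the smallest of the 8.

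Krt20, the umbrella cell keratin, read 8.03 and 7.27 on the knockout arrays and 8.49 and 9.70 in wild-type pools 1 and 2, a difference of -1.45 ± 0.48. The knockout mean was 1.79-fold lower than pool 1 and 4.15-fold lower than pool 2, the largest difference from pool 2 among the 8 genes.

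Krt5, the basal cell keratin, read 8.37 and 6.997 on the knockout arrays and 9.05 and 7.94 in wild-type pools 1 and 2. It was the 1 gene of the 8 that read lower in pool 2 than in pool 1, and knockout replicate 1 lay above pool 2. The difference was -0.81 ± 0.58. Against pool 1 the knockout mean was 2.58-fold lower and against pool 2 it was 1.20-fold lower, the reverse of the order seen in the uroplakins.

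Ly6d, the surface protein of keratinocytes, read 9.56 and 8.06 on the knockout arrays and 10.34 and 10.59 in wild-type pools 1 and 2. The pools were close together, both knockout arrays lay below them, and the difference of -1.66 ± 0.51 was the 43rd lowest of 16120 genes. The knockout mean was 2.89-fold lower than pool 1 and 3.44-fold lower than pool 2.

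Set against each pool, all 8 genes had a negative difference between the knockout mean and each wild-type pool. Against pool 1 the median of the 8 was -0.60 and the range was -1.53 to -0.083, where the median of all genes was 4.1e-05. Against pool 2 the median was -1.56 and the range -2.05 to -0.26, with 0.049 for all genes. These comparisons share the knockout arrays. By single arrays, 8 of 8 genes were lower on knockout replicate 1 than in pool 1 and 7 of 8 lower than in pool 2. Over all genes 51.1% and 43.3% were. On knockout replicate 2, 6 of 8 were lower than in pool 1 and 8 of 8 lower than in pool 2. There 48.3% and 43.7% of all genes were lower. The 8 were chosen with these levels known.

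**Figure D2:**
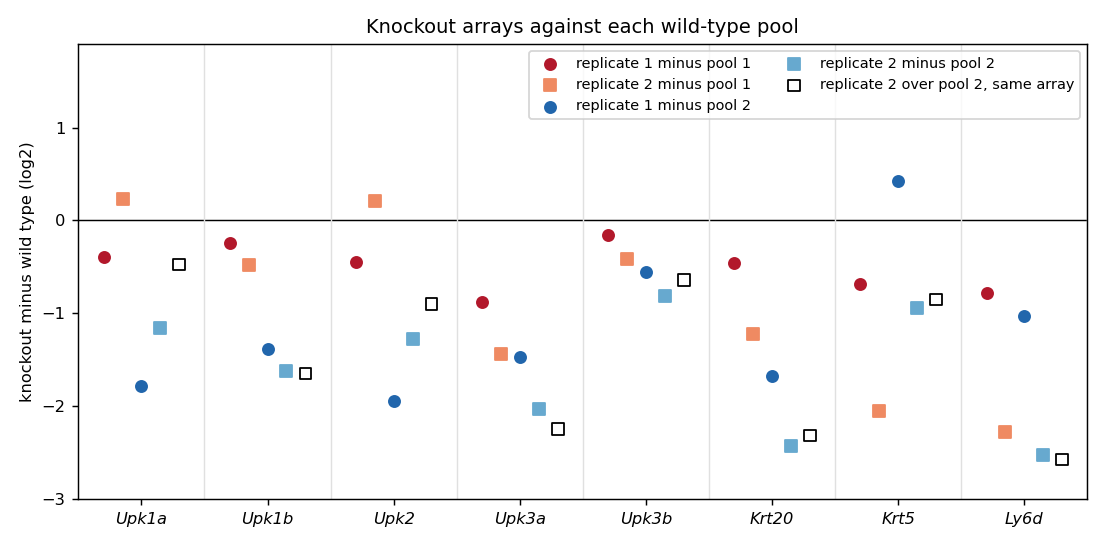
Log2 difference of each gene between a knockout array and a wild-type pool in Cy5 (filled points), and the log2 ratio of Cy5 over Cy3 on KO_vs_WT replicate 2, where knockout and pool 2 shared an array (open squares). The values above 0 are Upk1a and Upk2 on replicate 2 against pool 1, at 0.23 and 0.21, and Krt5 on replicate 1 against pool 2, at 0.42.

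KO_vs_WT replicate 2 gives a reading of knockout over pool 2 within a single array, in unlike dyes and with no replicate. Its log2 ratio was -2.58 for Ly6d, -2.32 for Krt20, -2.25 for Upk3a and -1.65 for Upk1b. These 4 of 8 genes were at least 2-fold lower in knockout, as were 2.11% of 16119 genes, and 0 were at least 2-fold higher, as were 1.49% of genes. In knockout, Ly6d stood at 16.8%, Krt20 at 20.1% and Upk3a at 21.0% of their signal in pool 2. The other four were at -0.90 for Upk2, -0.85 for Krt5, -0.64 for Upk3b and -0.48 for Upk1a. The second Upk1a probe was at -1.56 on this array. When a wild-type pool was set against itself on the self arrays, the same ratios lay between -0.16 and 0.22 for the 8 genes. The highest was Upk1a in pool 2, and the second Upk1a probe read 0.38 in pool 1, which is close in size to the -0.48 of the first probe on the shared array. Ly6d read -0.044 and -0.025 there for pools 1 and 2, Krt20 0.028 and 0.10, and Upk3a -0.056 and -0.16. With median centring in place of loess the ratio of Upk1a was 0.14 and the median of all genes 0.40. Its sign turned while it stayed below the typical gene. Upk2 was at -0.14 there, and 3 of the 8 genes were at least 2-fold lower, as were 1.18% of all genes. In the deposited log ratios, 7 of the 8 genes were at least 2-fold lower, as were 6.23% of all genes.

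**Figure D3:**
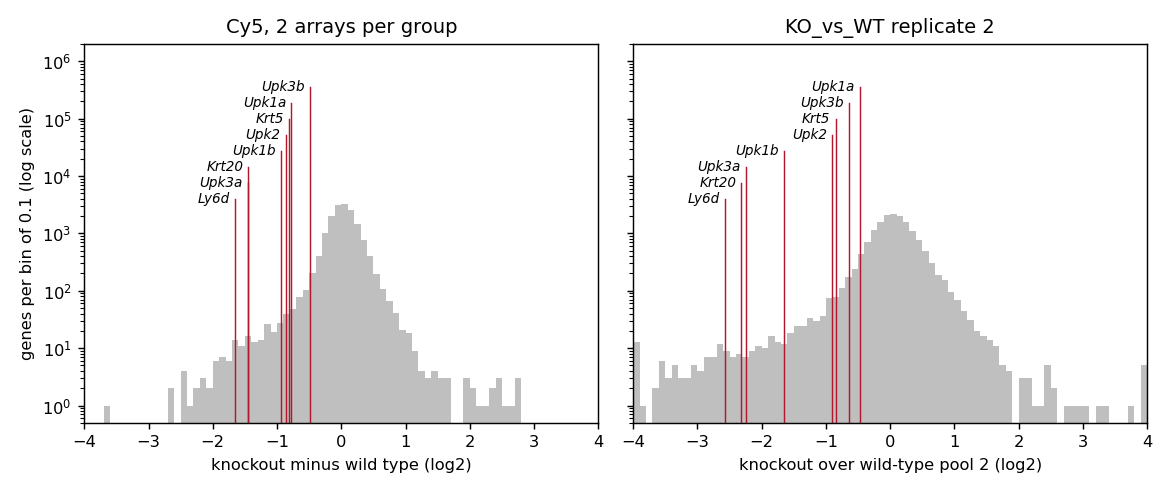
Number of genes per bin of the log2 difference between knockout and wild type in Cy5 (left, 16120 genes) and of the log2 ratio of knockout over wild-type pool 2 on KO_vs_WT replicate 2 (right, 16119 genes), with the 8 urothelial genes as red lines whose heights carry no value. The count axis is logarithmic and the outermost bins hold all genes beyond them. All 8 lines lie below 0 in both panels, from -1.66 to -0.49 on the left and from -2.58 to -0.48 on the right.

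The wild-type pools differed from each other in these genes, and both dyes showed it. With the 7 channels that held signal normalized together, Upk2 was higher in pool 2 than in pool 1 by 1.45 in Cy5 and 1.29 in Cy3 of the self arrays. The same differences were 1.24 and 1.16 for Upk1a, 1.13 and 1.07 for Krt20, and 1.08 and 1.15 for Upk1b. These 4 of 8 genes were at least 2-fold higher in pool 2 in each dye, as were 2.02% of genes in Cy5 and 1.96% in Cy3. After a 75th percentile shift of each channel in place of quantile normalization, Upk1a at 1.18 and Upk2 at 1.30 remained past 2-fold in Cy5. In Cy3 Upk2 alone did, at 1.19. Over all genes 2.46% were at least 2-fold higher in pool 2 in Cy5 and 1.23% in Cy3 after this shift. Upk3a was higher in pool 2 by 0.59 and 0.66, Upk3b by 0.31 and 0.25, and Ly6d by 0.24 and 0.17. Krt5 went the other way, at -0.98 and -0.91, and 0 of 8 genes were 2-fold lower in pool 2, where 0.928% of genes were in Cy5 and 1.08% in Cy3. That 0 rests on the joint normalization, since Krt5 was past 2-fold in Cy5 at -1.11 with the 4 Cy5 channels alone, at -1.23 after the 75th percentile shift, at -1.17 with an offset of 10 and at -1.36 with processed signals. Over all genes 1.5%, 1.61%, 2.29% and 11.1% were at least 2-fold lower in pool 2 under these settings, in the same order. The dyes measured the same 2 RNA pools, so their agreement is about the measurement and gives no further pool.

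Pool 2 was also labelled on KO_vs_WT replicate 2, which shows how far repeat readings of the same RNA lay apart. Over its 3 channels pool 2 spanned 0.035 for Upk1b, 0.055 for Ly6d, 0.071 for Krt20 and 0.16 for Upk3a, where the median gene spanned 0.14. On knockout replicate 2 these 4 genes lay below the lowest of the 3 pool 2 readings by more than that span, at -1.50, -2.36, -2.06 and -2.01. So did Upk3b at -0.57 with a span of 0.043, Krt5 at -0.74 with 0.17 and Upk2 at -0.89. Upk1a, at -0.44, did not. The span comes from repeat readings of 1 pool and does not measure the spread between pools. The genes were chosen with this contrast known. Upk1a spanned 0.61 and Upk2 0.35, above the 95th percentile of all genes at 0.34. For both it was the Cy3 reading on KO_vs_WT replicate 2 that was low, at 8.19 against 8.79 and 8.64 on the self array for Upk1a, and at 10.15 against 10.50 and 10.48 for Upk2. On the same array these were the genes of the 8 that stood higher in knockout than on KO_vs_WT replicate 1, and whether the array itself moved both channels was not tested. The second Upk1a probe held steady, with pool 2 at 8.10 in Cy3 of that array against 8.11 and 8.06 on the self array.

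After quantile normalization the knockout arrays were nearly alike across all genes but not in several of the 8. The SD over genes of their difference was 0.154, against 0.474 between the wild-type pools and 0.128 between Cy3 readings of pool 2 on separate arrays. Between them 17 of 16118 genes were at least 2-fold apart, and 3 of the 17 were lower on replicate 2 (0.0186% of genes) and 14 higher (0.0869%), with 2 of the 8 among the lower and 0 among the higher. Those 3, named after their values were seen, were Ly6d at -1.50, Krt5 at -1.37 and Kap, a kidney androgen-regulated gene of the proximal tubule, at -1.21. Krt20 was lower on replicate 2 by 0.76 and Upk3a by 0.56, the 15th and 41st lowest of all genes. Upk1b and Upk3b differed by -0.24 and -0.25, the 769th and 620th lowest. Upk2 and Upk1a were higher on replicate 2, by 0.66 and 0.63, and by its second probe Upk1a was lower, at -0.43. When processed signals replaced the corrected intensities, the order turned for Upk3a and Upk1b, at 0.91 and 0.11 for replicate 2 minus replicate 1, where the median of all genes was 0.14. Ly6d was then at -0.76, under 2-fold. Krt5 at -1.92 and Upk3b at -1.40 were at least 2-fold lower on replicate 2, as were 4.5% of genes, and Upk2 at 1.62 and Upk1a at 1.04 were at least 2-fold higher, as were 17.7% of genes. In the quantile-normalized levels, Ly6d was at -2.53 against pool 2 on knockout replicate 2 and at -1.03 on replicate 1, and Krt5 at -0.95 and 0.42. The 8 genes were chosen with earlier results of these arrays known.

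**Figure D4:**
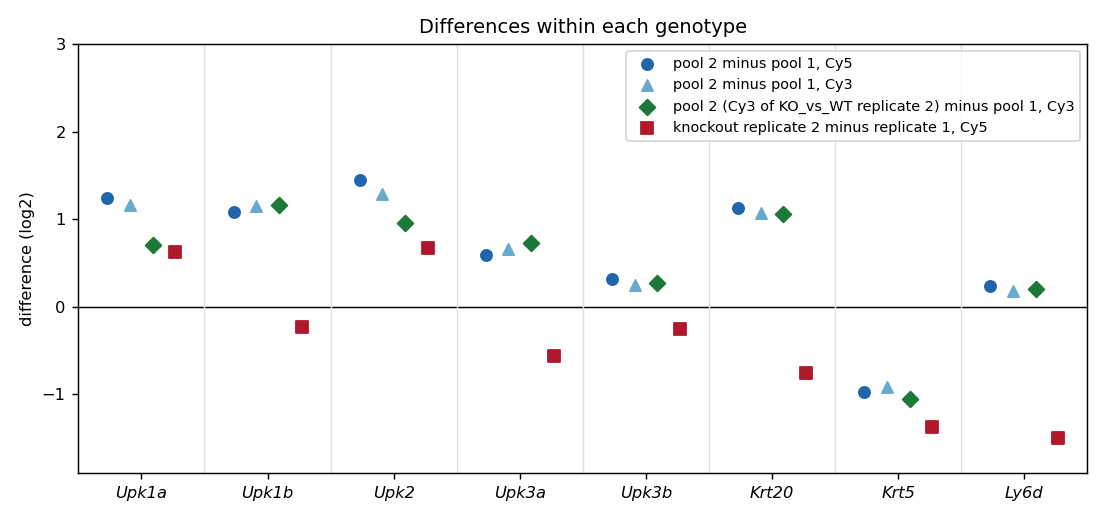
Log2 differences within a genotype for each gene: wild-type pool 2 minus pool 1 in Cy5 and in Cy3 of the self arrays, the same with pool 2 read in Cy3 of KO_vs_WT replicate 2 (7 channels normalized together), and knockout replicate 2 minus replicate 1 in Cy5 (the 4 Cy5 channels normalized together). Krt5 is below 0 in all 4 readings, Upk1a and Upk2 are above 0 in all 4, and in the other 5 genes the pools and the knockout arrays differ in opposite directions.

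Over the 7 channels with signal the genes fell into unlike profiles. The gene nearest to Upk3a was Krt20, by the root mean square difference between profiles centred on their means, at 0.21 log2 units among 591 genes that spanned at least 1 log2 unit, where the median gene was 0.61 away. Sptssb, a subunit of serine palmitoyltransferase, followed at 0.22, then the fatty acid binding protein gene Fabp4 at 0.24, and the glutathione transferase gene Gstm3 was also near at 0.29. Ly6d came 6th at 0.29 and Upk1b 13th at 0.34, while Upk2 and Upk1a were 192nd and 256th. The rank of Upk1a is that of its brighter probe. The second Upk1a probe, which differed between the knockout arrays in the other direction, was not ranked. Nearest to Krt5 were S100a9, a calcium-binding protein gene of neutrophils and stressed keratinocytes, at 0.22, Fxyd6 and Lhx1 at 0.24, and Calb1 and Cyp26b1 at 0.28. The nearest of the other urothelial genes to Krt5 was Ly6d, as the 92nd at 0.67. Upk3b did not span 1 log2 unit and was not ranked. The 7 channels come from 4 arrays and share RNA pools, so these distances describe the channels and are not independent observations. The urothelial genes were also chosen with earlier results of these arrays known. Their closeness to Upk3a may therefore follow in part from that choice.

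RefSeq promoter windows (GRCm38.p6, 250 bases before to 50 after the start site) were at hand for 5 of the 8 genes, Upk1a, Upk3a, Upk3b, Krt20 and Krt5. Those of Upk3a and Krt20 are shown because these genes had the nearest profiles, and that of Krt5 because its profile was unlike theirs. Capitals mark matches on either strand to any of 5 motifs. The TATA box was searched as TATAAA. The GATA factor element was searched as AGATAA. The GC box was searched as GGGCGG. The grainyhead element was searched as AACCNGTT, and the AP-1 element as TGANTCA. The windows lie at chr15:85016891-85017190 on the plus strand for Upk3a, chr11:99438104-99438403 on the minus strand for Krt20 and chr15:101712856-101713155 on the minus strand for Krt5.
Upk3a promoter: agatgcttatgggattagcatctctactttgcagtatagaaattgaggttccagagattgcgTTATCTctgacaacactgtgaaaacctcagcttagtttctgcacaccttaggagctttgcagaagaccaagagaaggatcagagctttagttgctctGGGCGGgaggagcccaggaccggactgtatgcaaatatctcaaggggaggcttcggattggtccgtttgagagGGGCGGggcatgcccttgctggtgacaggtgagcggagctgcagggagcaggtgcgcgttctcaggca
Krt20 promoter: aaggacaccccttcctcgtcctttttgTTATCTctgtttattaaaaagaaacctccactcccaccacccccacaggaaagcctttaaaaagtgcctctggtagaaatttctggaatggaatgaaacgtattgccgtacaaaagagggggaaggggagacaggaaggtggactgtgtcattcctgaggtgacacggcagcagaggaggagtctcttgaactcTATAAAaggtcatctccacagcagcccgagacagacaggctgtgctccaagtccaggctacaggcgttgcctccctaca
Krt5 promoter: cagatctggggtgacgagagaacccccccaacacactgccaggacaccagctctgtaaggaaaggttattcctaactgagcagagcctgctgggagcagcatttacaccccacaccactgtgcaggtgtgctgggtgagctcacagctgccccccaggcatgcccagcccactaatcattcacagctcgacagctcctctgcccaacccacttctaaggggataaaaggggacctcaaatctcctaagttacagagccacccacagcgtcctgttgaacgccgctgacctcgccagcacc
The Upk3a and Krt20 windows each held the GATA element, with its first base at -188 and -223 from the start site, and so did 11.2% of 32851 promoters. Upk3a also had GC boxes at -91 and -18 (35.7% of promoters), and Krt20 a TATA box at -29 (13.6%). The Krt5 window and those of Upk1a and Upk3b held none of the 5 motifs, which says only that these letters are not in these windows. The grainyhead element (2.09% of promoters) and the AP-1 element (7.81%) were in none of the 5 windows. A match describes the letters of a window and not a bound site.

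Taken as lists, other genes of the urothelium did not follow the 8 together, although some were too dim to tell. Of 10 genes of umbrella and luminal cells 8 were measured, 0 were called (as over all genes), 4 had a negative and 4 a positive difference, and the median was 0.032. The brightest of them are keratins that collecting duct cells share. Krt18, Krt8 and Krt7 differed by 0.079, 0.13 and 0.082. Psca, a surface antigen of luminal urothelium named after its values were seen, read 7.86 and 7.92 on the knockout arrays and 7.82 and 9.41 in wild-type pools 1 and 2, so that it stood out in pool 2 alone. Of 9 transcription regulators of the urothelium 8 were measured, 0 were called, 2 had a negative and 6 a positive difference, and the median was 0.17. Gata3, which marks both urothelium and collecting duct, differed by 0.35. Grhl2, an epithelial grainyhead factor, differed by 0.16 and Rxra, the partner of nuclear receptors, by 0.18. The 2 negative differences were those of Trp63 at -0.26 and Pparg at -0.19, named after their values were seen. For these 2 the knockout readings lay below those of the pools without overlap, as for 17.2% of all genes. For 4 of the 8 regulators they lay above without overlap, as for 22.4% of all genes. Trp63 and, named after their values were seen, Foxa1 and Krt13 read between 6.48 and 7.40 on all arrays. At such levels the offset of the background correction holds differences small.

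Of 10 basal keratinocyte genes besides Krt5 and Ly6d, 7 were measured and 0 called (as over all genes), with a median of 0.13 and 2 negative differences. The integrin genes Itgb4 and Itga6, whose products anchor basal cells to the basement membrane, differed by 0.43 and -0.13. The keratin gene Krt17 differed by 0.13 and was dim, at 6.98 and 7.07 on the knockout arrays against 6.72 and 7.08 in the pools. The other measured genes of this list were dimmer on average. At such levels the offset of the background correction holds differences small. Krt17 and these dimmer genes therefore do not tell whether basal markers followed Krt5 and Ly6d. Of 10 genes of cornified epithelium 5 were measured and 0 called, with 3 negative differences and a median of -0.026. Among them Sprr1a, a small proline-rich envelope protein, read 10.49 and 10.44 on the knockout arrays and 10.78 and 11.84 in the pools, a difference of -0.85. Sbsn and Krt10 differed by 0.19 and -0.026. For mesothelium, where Upk3b is also known, Msln differed by 1.20 and Wt1 by -0.28, and the other 3 of the 5 genes were not measured. For B cells, which share Ly6d, 3 of 7 genes were measured, and Cd79a and Ms4a1 were among those that were not. Blnk, Cd79b and Vpreb1 differed by 0.73, -0.23 and -0.0039.

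Genes of other cell types also differed between these arrays. The 5 measured of 7 proximal tubule genes had a median difference of -0.29 against pool 1 and -3.98 against pool 2, with a summed linear level of 1821 and 1374 on the knockout arrays against 2437 in pool 1 and 24384 in pool 2. Fbp1, Slc34a1 and Slc22a6 were the brightest of them, at -2.45, -2.62 and -1.80 in the Cy5 comparison. The erythroid list had a median of -0.37 against pool 1 and 1.00 against pool 2, with summed levels of 10080 and 7775 on the knockout arrays against 11515 and 4223 in the pools, over 3 of 5 genes. Stromal genes stood at -0.28 and 0.39, endothelial at -0.39 and -0.081, and leukocyte genes at -0.26 and 0.15 against pools 1 and 2. Their summed levels ran over 1086 to 1143, 264 to 295 and 431 to 491 on the knockout arrays, against 934 to 1366, 294 to 367 and 407 to 537 in the pools, over 6 of 6, 2 of 5 and 2 of 5 genes. The endothelial markers Pecam1, Cdh5 and Tek were not among the measured genes. Principal cell genes stood the other way from the urothelial genes, with medians of 0.37 against pool 1 and 0.63 against pool 2 and 6 of 8 genes clear of both pools on both knockout arrays in the higher direction (22.4% of all genes, and 0 of the 8 urothelial genes). Their summed level was 21056 and 23658 on the knockout arrays against 16965 and 13393 in the pools. The 8 ureteric bud and collecting duct genes, among them Calb1 at -0.57, Hoxb7 at 0.016 and Wnt9b at 0.43 in the Cy5 comparison, had medians of -0.12 and 0.21 against pools 1 and 2. The 5 intercalated cell genes were at -0.12 and -0.040 and 7 of 8 genes of ureteric smooth muscle and mesenchyme at -0.070 and 0.17. No gene of any list was called, and neither was any other of the 16120 genes, so this does not set the lists apart. The part of cell composition in the lower urothelial levels was not tested.

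**Figure D5:**
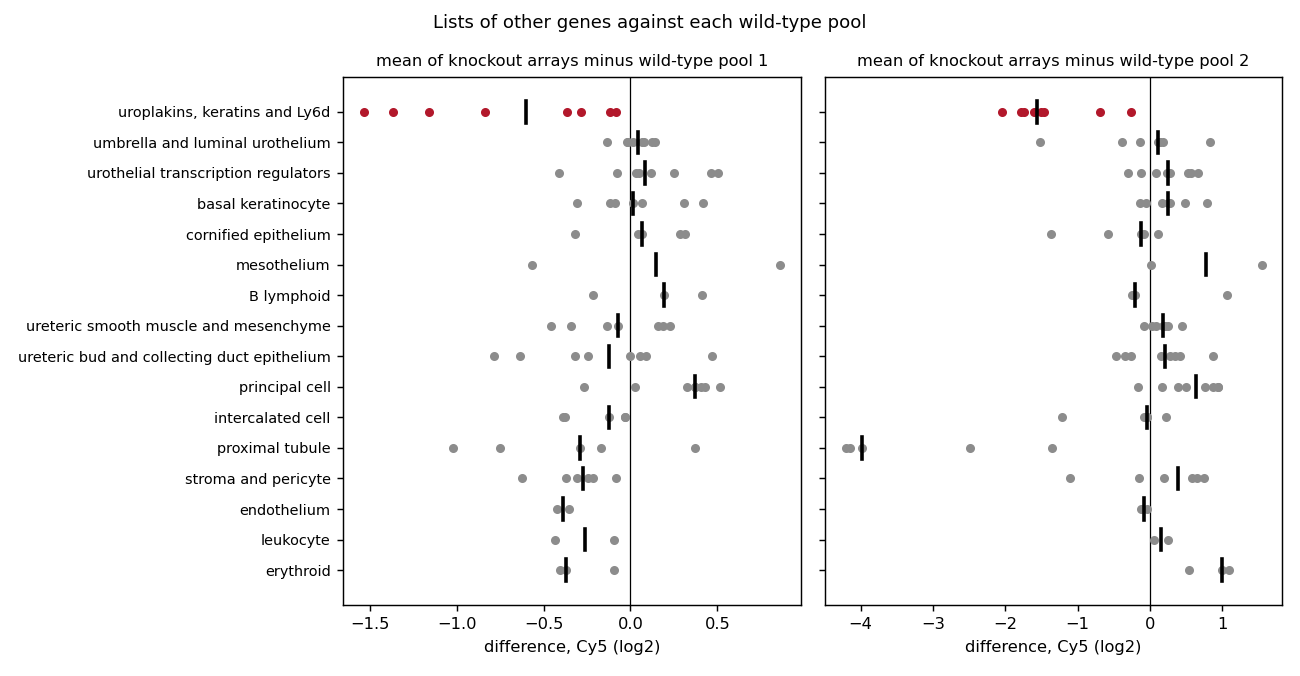
Log2 difference in Cy5 between the mean of the knockout arrays and wild-type pool 1 (left) or pool 2 (right) for the 8 urothelial genes (red) and each list of other genes (grey), with a point per measured gene and a black bar at the list's median. The red points are below 0 in both panels, with medians of -0.60 and -1.56, and the proximal tubule list has medians of -0.29 and -3.98. The panels have different horizontal scales.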

How the data were processed

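The 4 two-colour Agilent whole mouse genome arrays were read in 1 scan with Agilent Feature Extraction 10.7.3.1, per the file headers. The deposited files give each spot's median intensity and local background in Cy3 and Cy5, a processed intensity after the software's own background and dye correction, and a log10 ratio of processed Cy5 over Cy3, per the file headers. In the series table the authors deposited the same log10 ratios, identical for all 45018 spots of every array. Flags for spots well above background, saturated or outlying are other deposited columns. No spot of the 8 genes was saturated or an outlier.

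Cy5 intensities were background-corrected (normexp, offset 50), set to log2 and quantile normalized over the 4 arrays, leaving out control spots, outliers and a dark patch of 217 spots on WT_self replicate 1 (windows of 8 rows and 3 columns either way in which 0.25 of at least 8 bright spots had lost over 2 log2 units), which held no spot of the 8 genes. Probes entered if both arrays of a genotype had them well above background, and the brightest probe stood for a gene (16120 genes, 10515 with a symbol). Of 41174 probes, 22951 matched a symbol in RefSeq of GRCm38.p6. Genotypes were compared with limma 3.58.1 in R 4.3.3, two-sided, with Benjamini-Hochberg adjustment. For the pools, Cy5 of 4 and Cy3 of 3 arrays were normalized together. The shared-array ratio was loess normalized. The arrays, 2 per group, limit the precision. On simulated levels with the fitted spread, the Cy5 step recovered 77 of 100 genes changed by 1 log2 unit and 99 of 100 changed by 2. It made 18 false calls among 16038 genes. The simulated noise was independent between genes and arrays, and the changed genes were picked at random. The 8 genes had SEs of 0.19 to 0.58. The simulation therefore does not tell how many real changes would be called in these data.

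The members, the lists of other genes and the alternatives were chosen with earlier results of these data known. The genes named are the 8 members, the 3 brightest measured genes of each list with a place in the text, the 5 genes nearest in profile to Upk3a and to Krt5 (not every one is reported here), and genes said to be named after their values were seen. Alternatives were another offset, processed signals, a 75th percentile shift, no filter, the mean of probes, the patch kept, the replicate number as a block, each array left out, log ratios, median centring and the deposited ratios.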

Additional observations from a re-analysis of the deposited data

How the results depend on the processing

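The mean Cy5 difference of all 8 genes stayed negative, and below the median of all genes, in the Cy5 comparison and its 12 alternatives. Of 96 values of single genes under these, 91 moved by less than the SD between arrays of a group, 5 moved by more and 0 changed sign. Much of that count was fixed beforehand. Leaving out 1 array of 2 can move a difference by little more than this SD. No filter and the replicate block left the values of all 8 genes unchanged. The count is therefore no measure of how robust the differences are. The median of the 8 ran from -1.57 without WT_self replicate 1 to -0.63 without WT_self replicate 2, and was -1.50 with processed signals. With 1 array left out, genes called by limma ran from 0 to 2487 higher and from 0 to 1694 lower, the highest of each without WT_self replicate 1, where knockout is set against pool 2 alone and the lone array is assumed to vary like the others, and 6 of the 8 genes were among the calls there, where 10.5% of all genes were called lower and 15.4% higher, in a contrast that was known when they were chosen. Without WT_self replicate 2 there were 4 higher. As log ratios, 2 of the 8 genes were lower on both KO_vs_WT arrays than on both self arrays, in place of 5, and KO_vs_WT replicate 1 has almost no wild-type signal below its ratio. On the shared array 7 genes in place of 4 were at least 2-fold lower in the deposited log ratios. After a 75th percentile shift 1 gene in place of 4 was at least 2-fold apart between the pools in Cy3, and with processed signals 4 genes in place of 2 were so between the knockout arrays, 2 of them higher and 2 lower on replicate 2. For these the cause was not tested. The replicate block left 0 genes higher and 0 lower, and same-numbered arrays of the groups did not deviate together (r = 0.038 across genes), so the number is not known to pair them. On KO_vs_WT replicate 2 the knockout readings of Upk3b, the second Upk1a probe, Krt5 and Krt20 lie closest to background. Their background-subtracted signals were 26.0, 37.5, 45.5 and 69.5, where an offset of 50 holds differences small. The same limit applies to the dim genes of the other lists.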
